A study of Homo sapiens with 6 samples.

Results

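Chemokines are small secreted or membrane-anchored proteins that attract cells through G protein-coupled receptors. This account covers 9 chemokine ligands and the receptor CXCR4 in MDA-MB-231 cells, an established triple-negative breast cancer line, upon silencing of ZNF148. The 10 genes were chosen by symbol, and 9 rows of the deposited table, of 24108 in all, carry them, because CXCL2 and CXCL3 share 1 joined row. IL8 is the name the table gives to CXCL8.

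The cells were transduced for 48 h with an LKO lentivirus carrying either a short hairpin against luciferase (shCtr, n = 3) or a hairpin against ZNF148 (shZNF148, n = 3). All 6 samples were then selected for 24 h in 0.5 µg/ml puromycin, and total RNA was sequenced. No cloning step is described, and each group rests on 1 hairpin, so an effect particular to the hairpin and an effect of ZNF148 loss cannot be told apart. The labels do not say whether replicates were separate cultures, so p-values measure the spread between these samples, which may be technical.

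The ELR+ CXC chemokines (CXCL1, CXCL2, CXCL3 and IL8) carry a glutamate-leucine-arginine motif, bind CXCR1 and CXCR2, and attract neutrophils. Their genes are induced through NF-kB in epithelial and tumour cells, and their transcripts turn over fast through AU-rich elements. CXCL10 binds CXCR3 and is induced by interferons, CCL5 attracts T cells and monocytes, and CCL20 binds CCR6. CXCL16 and CX3CL1 (fractalkine) are made as membrane-anchored proteins, bind CXCR6 and CX3CR1, and are shed by ADAM10 and ADAM17. CXCR4 is the receptor of CXCL12 and is widely studied in breast cancer metastasis.

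The promoters of the 4 ELR+ genes are shown because they share a kappa-B word, GGAATTTCC, of the kind bound by NF-kB. They come from RefSeq on GRCh38.p14 and run from 250 bases before the transcription start to 50 bases from it, 5′ to 3′, with that word in capitals.
IL8 (chr4:73740319-73740618, plus strand): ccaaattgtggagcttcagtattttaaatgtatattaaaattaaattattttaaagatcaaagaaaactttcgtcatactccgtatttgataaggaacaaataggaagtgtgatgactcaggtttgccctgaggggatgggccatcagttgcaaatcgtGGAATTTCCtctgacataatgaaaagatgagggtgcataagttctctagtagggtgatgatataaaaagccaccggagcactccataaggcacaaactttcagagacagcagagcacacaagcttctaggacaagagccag
CXCL1 (chr4:73869143-73869442, plus strand): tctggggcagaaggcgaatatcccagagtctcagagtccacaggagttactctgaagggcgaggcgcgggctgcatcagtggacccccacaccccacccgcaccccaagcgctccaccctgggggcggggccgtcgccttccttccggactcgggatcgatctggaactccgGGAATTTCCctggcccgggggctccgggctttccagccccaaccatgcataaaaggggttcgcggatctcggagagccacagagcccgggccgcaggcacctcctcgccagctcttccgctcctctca
CXCL2 (chr4:74099146-74099445, minus strand): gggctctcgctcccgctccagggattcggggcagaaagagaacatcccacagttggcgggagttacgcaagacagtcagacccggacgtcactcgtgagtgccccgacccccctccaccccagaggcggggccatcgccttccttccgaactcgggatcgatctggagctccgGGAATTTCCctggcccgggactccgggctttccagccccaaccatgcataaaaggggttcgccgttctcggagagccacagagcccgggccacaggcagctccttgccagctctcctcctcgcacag
CXCL3 (chr4:74038640-74038939, minus strand): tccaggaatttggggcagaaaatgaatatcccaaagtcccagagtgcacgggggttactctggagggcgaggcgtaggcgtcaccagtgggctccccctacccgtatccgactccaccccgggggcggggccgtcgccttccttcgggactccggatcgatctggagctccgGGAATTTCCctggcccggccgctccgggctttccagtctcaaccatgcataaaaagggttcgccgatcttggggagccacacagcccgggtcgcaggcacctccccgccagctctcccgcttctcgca
The word begins 91 bases before the start of IL8, 78 bases before those of CXCL1 and CXCL3, and 77 bases before that of CXCL2. Searched on both strands, it was found in 0.461% of 35116 RefSeq promoters of the same length. The CXCL10 promoter holds it in the other orientation, and those of CCL20 and CXCR4 do not hold it. The AP-1 word TGANTCA, found in 7.71% of all promoters, occurred among these genes in IL8 alone. The C-rich word CCCTCCCC, found in 13.6% of all promoters, occurred in none of the 4 ELR+ promoters and in 2 of 3 RefSeq starts of CXCR4. All words were chosen after the sequences were seen, and a match is not evidence of binding. Of the 10 genes, 7 had a promoter entry, and CCL5, CXCL16 and CX3CL1 had none.

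Values are FPKM (fragments scaled to transcript length and to the number of mapped fragments), which can be compared between genes. The summed FPKM was between 497730 and 507312 in shCtr and between 469594 and 488173 in shZNF148. The fragments behind most values are unknown. Steps between low values gave depths of 0.806 to 1.13 relative to shCtr replicate 1, with the lowest in shZNF148 replicate 3. ZNF148 itself was at 3.72, 4.36 and 4.30 FPKM in shCtr and at 0.914, 0.282 and 0.834 FPKM in shZNF148, with replicate 2 the lowest. Of 5 genes that MDA-MB-231 cells express, all were detected and all had a log2 fold change below 0, with a median of -0.29. EGFR was called lower by limma, at 63.2, 72.4 and 64.1 FPKM in shCtr and 47.8, 38.0 and 44.6 FPKM in shZNF148 (-0.61, adjusted p = 0.0200). CD44 averaged 588 and 429 FPKM (-0.46, adjusted p = 0.0185) and AXL 345 and 281 FPKM (-0.29, adjusted p = 0.0364), both under 1.5-fold, while VIM (-0.22, adjusted p = 0.0563) and CAV1 (-0.12, adjusted p = 0.400) did not pass. Of 5 genes listed as absent from this line, ESR1 was listed at 0 and CDH1 and PGR were below 0.5 FPKM, but GATA3 was at 7.53 to 9.24 FPKM. The joined row of ERBB2 and MIR4728 was at 20.1, 126 and 20.1 FPKM in shCtr and 24.8, 125 and 21.9 FPKM in shZNF148, so that replicate 2 stood apart in both groups. The part of these differences in the chemokine results was not tested. The leukocyte genes PTPRC, CD3E and ITGAM were at or below 0.115 FPKM, and the endothelial genes PECAM1, CDH5, VWF and KDR together were at or below 0.618 FPKM in each sample. Of 8 leukocyte markers, 3 were tested, and limma called 2 higher in shZNF148, CSF1R and LYZ, where 1.83% of all tested rows were called higher. CD68 passed the adjusted p lower but not the fold (-0.52, limma adjusted p = 0.0233). LYZ averaged 0.627 ± 0.173 and 3.18 ± 1.55 FPKM. The calls of EGFR, CSF1R and LYZ were lost when replicate number entered the model (limma adjusted p = 0.0619, 0.0831 and 0.0630). The summed level of all 8 leukocyte markers was 114 to 132 FPKM in shCtr and 79.9 to 96.9 FPKM in shZNF148, mostly CD68, and its part in the results below was not tested. In bulk RNA, fewer cells that make a transcript and less of it per cell cannot be told apart.

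In shZNF148, the transcript of the neutrophil attractant IL8 was lower than in shCtr and that of the membrane-anchored chemokine CX3CL1 was higher. CXCL1, the joined CXCL2 and CXCL3 row and CXCR4 had every shZNF148 value under every shCtr value but did not reach the threshold. CXCL16 overlapped between the groups. CXCL10, CCL5 and CCL20 were near the limit of detection. The 11777 rows averaging 1 FPKM or more were tested with limma on log2(FPKM + 1), a scale that understates the change of low genes. A call needed both an adjusted p below 0.05 and more than 1.5-fold between the groups. Of the 9 chemokine rows, 6 were tested, 1 was called lower and 1 higher, where 3.66% and 1.83% of all tested rows were called lower and higher. By the adjusted p alone the same 2 rows passed, where 8.13% of all tested rows passed lower and 5.46% higher. The groups did not overlap in 5 of the 6 rows, 4 with shZNF148 below and 1 above, where the shares over all tested rows were 21.0% and 20.0%. The median log2 fold change was -0.62 over the 6 rows and 0.01 over all tested rows. IL8 was also called in 10 of 17 alternative settings and CX3CL1 in 7. Neither was called when replicate number entered the model.

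**Figure D1:**
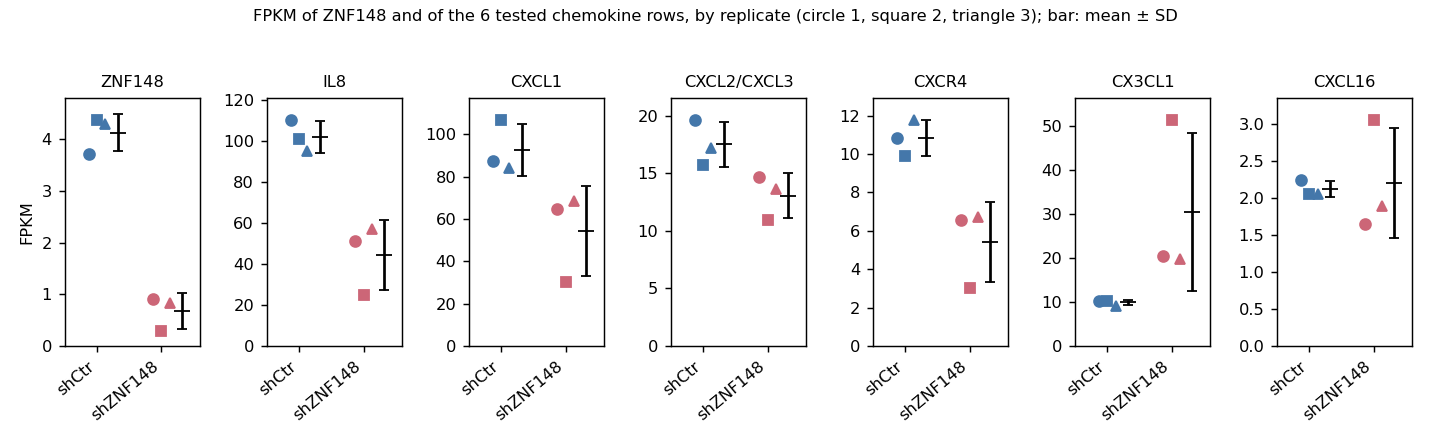
FPKM of ZNF148 and of the 6 tested chemokine rows in each sample, on linear axes that start at 0 (blue shCtr, red shZNF148, with circles, squares and triangles for replicates 1, 2 and 3), with the mean ± SD beside each group. In shZNF148 the square, replicate 2, lies farthest from shCtr in IL8 (24.9 FPKM), CXCL1, CXCL2/CXCL3, CXCR4 and CX3CL1 (51.2 FPKM) and has the lowest ZNF148 (0.282 FPKM).

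IL8 had the highest mean of these transcripts in shCtr, at 110.1, 101 and 94.99 FPKM in replicates 1, 2 and 3. In shZNF148 IL8 was at 51.2, 24.9 and 57.0 FPKM. Every shZNF148 sample was below every shCtr sample, and replicate 2 was the lowest. The mean went from 102 ± 7.62 to 44.4 ± 17.1 FPKM (SD, n = 3 each), which is 43.5% of the control. IL8 thus had a log2 fold change of -1.27 (standard error 0.29, 95% interval -1.96 to -0.57, limma adjusted p = 0.0379). For IL8 the two-sided p of an exact permutation test was 0.1, the smallest that 3 samples against 3 allow.

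The IL8 call was lost without 4 of the 6 samples. Without shCtr replicate 1, 2 or 3 the log2 fold change was -1.21, -1.27 and -1.32, and the adjusted p was 0.136, 0.1001 and 0.114. Without shZNF148 replicate 1 the values were -1.41 and 0.0723. Without shZNF148 replicate 2, the sample farthest from the controls, the change was smaller, at -0.90, and the adjusted p was 0.00629.

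CXCL1 was nearly as abundant as IL8 in the control cells. Its FPKM was 87.6, 107 and 84.0 in shCtr and 64.7, 30.0 and 68.6 in shZNF148. The groups did not overlap, and again replicate 2 of shZNF148 was far below the other two. CXCL1 averaged 92.7 ± 12.2 and 54.5 ± 21.2 FPKM (SD, n = 3 each), for a log2 fold change of -0.84 (standard error 0.30, 95% interval -1.56 to -0.11, limma adjusted p = 0.109). Without shZNF148 replicate 2 the log2 fold change was -0.46 and the adjusted p 0.0479, with a change under 1.5-fold, so that CXCL1 was not called under any setting tried. Its adjusted p over all settings ran from 0.0479 to 0.247.

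The joined row of CXCL2 and CXCL3 was at 19.6, 15.7 and 17.2 FPKM in shCtr and at 14.7, 10.9 and 13.6 FPKM in shZNF148. The spread within each group was alike, at 17.5 ± 1.96 and 13.1 ± 1.96 FPKM (SD, n = 3 each), and the groups did not overlap. This row had a log2 fold change of -0.40 (standard error 0.13, 95% interval -0.71 to -0.09, limma adjusted p = 0.0831), and the adjusted p was between 0.0629 and 0.237 in the other settings. How this value divides between the genes cannot be told from the table. Their coding sequences are 94.4% identical over 324 bases, with a longest identical run of 97 bases, and CXCL1 is 93.5% and 90.7% identical to CXCL2 and CXCL3. Reads may be split between the 3 genes, so the separate levels of CXCL1 and of the joined row are uncertain. IL8 has 51.7% to 54.2% identity to them, with identical runs of at most 9 bases.

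Added together, the 3 ELR+ rows came to 217, 224 and 196 FPKM in shCtr and to 131, 65.9 and 139 FPKM in shZNF148. The sum was 212 ± 14.3 and 112 ± 40.1 FPKM (SD, n = 3 each). IL8 and CXCL1 overlapped in level within shCtr, where the FPKM ratio of IL8 to CXCL1 was 1.26, 0.949 and 1.13. In shZNF148 the ratio was 0.791, 0.830 and 0.831, below every control value. This ratio is within each sample and does not depend on how samples were scaled to each other.

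CXCR4 was at 10.8, 9.87 and 11.7 FPKM in shCtr and at 6.55, 3.00 and 6.72 FPKM in shZNF148. No shZNF148 value reached the shCtr values, and the mean of 5.42 ± 2.10 FPKM was 50.2% of the control mean of 10.8 ± 0.937 FPKM (SD, n = 3 each). CXCR4 had a log2 fold change of -0.94 (standard error 0.25, 95% interval -1.54 to -0.33, limma adjusted p = 0.0555), which did not pass. It was called when shZNF148 replicate 2 was left out (-0.63, adjusted p = 0.0167), and its adjusted p ran from 0.0167 to 0.167 over all settings. CXCL12, the ligand of CXCR4, was at or below 0.103 FPKM in each shCtr sample and listed at 0 in all shZNF148 samples.

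CX3CL1 moved in the other direction. It was at 10.3, 10.2 and 9.13 FPKM in shCtr, a narrow range, and at 20.4, 51.2 and 19.6 FPKM in shZNF148. Every shZNF148 sample was above every control, and replicate 2 was more than 2 times as high as the other two. CX3CL1 averaged 9.87 ± 0.645 FPKM in the controls and 30.4 ± 18.0 FPKM (SD, n = 3 each) upon silencing, a 3.08-fold ratio of means. Its log2 fold change was 1.39 (standard error 0.34, 95% interval 0.57 to 2.21, limma adjusted p = 0.0450), and the exact two-sided permutation p was 0.1.

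CX3CL1 kept its direction without each sample, but the call was lost without shCtr replicate 1, 2 or 3 (adjusted p = 0.141, 0.111 and 0.144) and without shZNF148 replicate 1 or 3 (0.0738 and 0.0521). Without shZNF148 replicate 2 the log2 fold change was 0.95 and the adjusted p 0.00494.

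CXCL16, the other membrane-anchored chemokine, was at 2.24, 2.06 and 2.05 FPKM in shCtr and at 1.65, 3.05 and 1.90 FPKM in shZNF148. The groups overlapped, with 2 shZNF148 samples below the controls and replicate 2 above them. The log2 fold change of CXCL16 was 0.01 (95% interval -0.40 to 0.43, limma adjusted p = 0.966), and its sign turned when shZNF148 replicate 2 was left out (-0.17, adjusted p = 0.318) or when shCtr replicate 2 or 3 was.

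**Figure D2:**
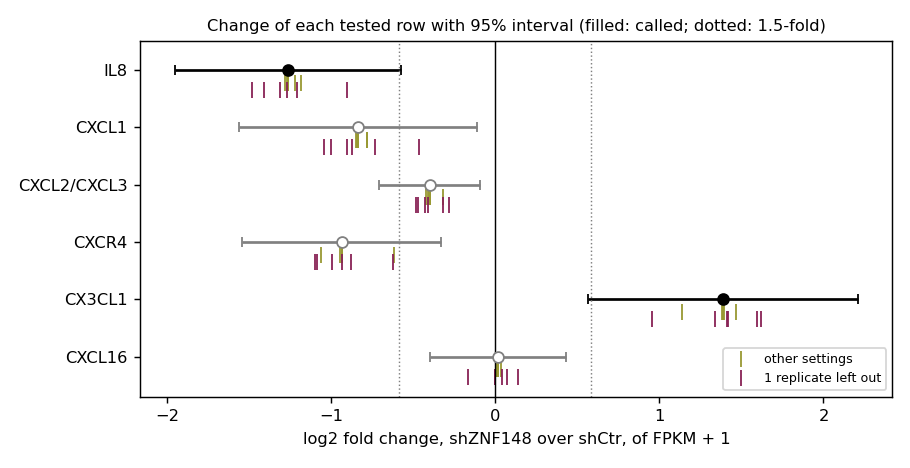
The log2 fold change of FPKM + 1, shZNF148 over shCtr, of the 6 tested rows (circles, filled where called) with 95% intervals from limma, and below each the values in the other settings and with 1 replicate left out. IL8 (-1.27) and CX3CL1 (1.39) lie beyond the dotted 1.5-fold lines on opposite sides, and the value nearest to 0 in each of these rows is the one without shZNF148 replicate 2.

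Among the ligand transcripts, the make-up differed between the groups. Of the summed FPKM of the 8 ligand rows, CX3CL1 made up 4.47%, 4.30% and 4.38% in shCtr and 13.3%, 42.1% and 12.1% in shZNF148. IL8 made up 47.8%, 42.7% and 45.6% in shCtr and 33.5%, 20.5% and 35.2% in shZNF148. The share of CXCL2 and CXCL3 overlapped between the groups, at 7.79 ± 1.02% and 8.98 ± 0.606% (SD, n = 3 each). Shares of a sum depend on each other, so these are a description of the make-up and not further tests.

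**Figure D3:**
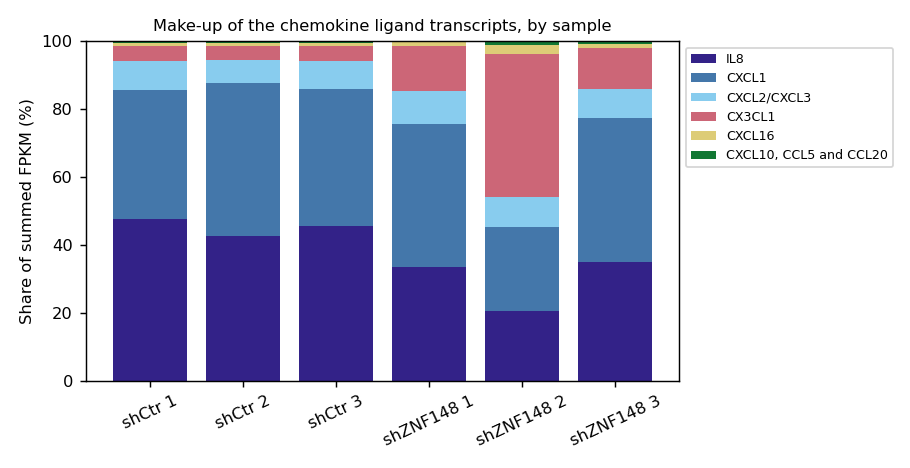
Share of the summed FPKM of the 8 ligand rows held by each ligand, in percent, with 1 bar per sample. The CX3CL1 segment (rose) is near 4% in the 3 shCtr bars, 13.3% and 12.1% in shZNF148 replicates 1 and 3 and 42.1% in replicate 2, where the IL8 segment is smallest (20.5%).

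The order of the levels also differed. In shCtr, IL8 and CXCL1 led with overlapping values, the CXCL2 and CXCL3 row followed apart from both, and CXCR4 and CX3CL1 came next with overlapping values, ahead of CXCL16. In shZNF148, CX3CL1 ranked 3 of the 9 rows in replicates 1 and 3 and ranked 1 in replicate 2. The ranges of CXCL1, IL8 and CX3CL1 overlapped in shZNF148, and the CXCL2 and CXCL3 row lay under them and above CXCR4. The FPKM ratio of CX3CL1 to IL8 was 0.0935, 0.101 and 0.0961 in shCtr and 0.399, 2.05 and 0.344 in shZNF148.

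CXCL10, CCL5 and CCL20 were below 1 FPKM in every sample and were not tested. Multiplied by the relative depth of the sample, their values were whole multiples of 1 step per gene (within 0.15 of a step). Each could thus be read as a number of fragments. These are the smallest numbers that fit, since a common multiple of them would fit as well. CXCL10 had 3, 0 and 1 fragments in shCtr and 1, 3 and 2 in shZNF148. CCL5 had 1, 1 and 7 in shCtr and 1, 2 and 2 in shZNF148. CCL20 had 2, 6 and 0 in shCtr and 1, 6 and 3 in shZNF148. The groups overlapped in all 3 genes, and a difference was not detectable at this depth. Intervals for such counts would cover counting error only, and none is given.

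**Figure D4:**
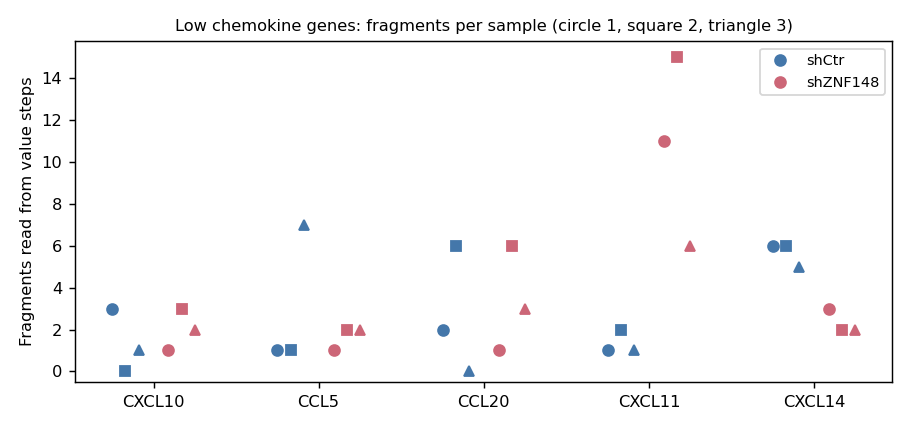
Fragments per sample as read from the value steps, for the 3 untested chemokines CXCL10, CCL5 and CCL20 and for CXCL11 and CXCL14 (blue shCtr, red shZNF148, with circles, squares and triangles for replicates 1, 2 and 3). The groups overlap in the first 3 genes, while CXCL11 has 1 to 2 fragments in shCtr and 6 to 15 in shZNF148, and CXCL14 5 to 6 and 2 to 3.

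Among 38 rows of other chemokine ligands, 21 were at 0 in all samples and 2 were tested. CCL28, a mucosal chemokine, was at 4.76, 5.71 and 4.14 FPKM in shCtr and at 5.35, 5.43 and 5.22 FPKM in shZNF148 (log2 fold change 0.12, limma adjusted p = 0.502). CCL26, an eosinophil attractant, was at 2.19, 0.862 and 2.38 FPKM in shCtr and at 2.49, 1.96 and 0.777 FPKM in shZNF148 (log2 fold change -0.04, limma adjusted p = 0.940), and its sign turned without shCtr replicate 1 or 3 or shZNF148 replicate 3. Neither was called by limma, and neither had an unadjusted p under 0.05. CXCL11, which binds CXCR3 and ACKR3 and is induced by interferons, was below the filter and was singled out after its values were seen. It was at 0.0802, 0.147 and 0.0763 FPKM in shCtr and at 0.781, 1.08 and 0.598 FPKM in shZNF148. By the same reading of steps, these are 4 and 32 fragments in all. In a limma fit with no filter (16993 rows) CXCL11 was called higher, with a log2 fold change of 0.72 (adjusted p = 0.0229). CXCL14, likewise singled out, averaged 0.343 ± 0.0398 and 0.146 ± 0.0290 FPKM (SD, n = 3 each), or 17 and 7 fragments in all by that reading. Its log2 fold change was -0.23 in the limma fit with no filter (adjusted p = 0.0375), under 1.5-fold.

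Among 22 rows of chemokine receptors other than CXCR4, 9 were at 0 in all samples and 1 was tested. CXCR1, CXCR2, CXCR3 and CX3CR1, the receptors of the ELR+ ligands, of CXCL10 and of CX3CL1, were listed at 0 throughout. The tested row was CCRL2, an atypical receptor that binds chemerin. CCRL2 was at 16.1, 24.7 and 18.3 FPKM in shCtr and at 33.2, 35.97 and 29.1 FPKM in shZNF148, with no overlap. CCRL2 rose by 0.72 on the log2 scale (standard error 0.16, limma adjusted p = 0.0356), but was not called without shCtr replicate 1 or 3 (0.59 and 0.68, adjusted p = 0.1199 and 0.124) or without shZNF148 replicate 1, 2 or 3 (0.71, 0.65 and 0.80, adjusted p = 0.0925, 0.0656 and 0.0524), or with no filter (0.0537).

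Of 8 genes that shed, trim or hold chemokines, 1 was called lower and none higher (3.66% and 1.83% over all tested rows). It was SDC1 (syndecan-1), a heparan sulphate carrier, at 38.4, 39.4 and 33.8 FPKM in shCtr and 20.5, 16.6 and 19.96 FPKM in shZNF148 (log2 fold change -0.93, limma adjusted p = 0.00990). Its call was lost without shCtr replicate 1 or 3 (-0.91 and -0.999, adjusted p = 0.0713 and 0.0547). The sheddase ADAM10 was at 75.3, 79.6 and 77.1 FPKM in shCtr and 76.0, 66.0 and 78.4 FPKM in shZNF148, and was not called. ADAM17, the other sheddase, was at 23.6, 23.8 and 23.2 FPKM in shCtr and 21.8, 19.4 and 21.7 FPKM in shZNF148. ADAM17 was not called (log2 fold change -0.16, limma adjusted p = 0.159). Its shZNF148 values lay below those of shCtr without overlap, as in 21.0% of all tested rows. Of 9 tested rows of receptor signalling (G proteins, arrestins and receptor kinases), limma called none and none had an unadjusted p under 0.05.

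Of 22 rows of NF-kB factors and of regulators of transcript decay, 1 was called lower and none higher (3.66% and 1.83% over all tested rows). The called row was the AU-rich element binding protein ZFP36L1. It was at 115, 78.1 and 107 FPKM in shCtr and at 61.8, 56.0 and 60.4 FPKM in shZNF148 (log2 fold change -0.72, limma adjusted p = 0.0277), with no overlap. Its call was lost without shCtr replicate 1 or 3 (-0.61 and -0.66, adjusted p = 0.101 and 0.105) and without shZNF148 replicate 1 or 3 (-0.75 and -0.73, adjusted p = 0.0700 and 0.0566). NFKB2 and IKBKB, an NF-kB subunit and a kinase of its inhibitors, passed the adjusted p without overlap but not 1.5-fold (log2 fold changes -0.43 and -0.55, limma adjusted p = 0.0228 and 0.0317). A total of 8 of these rows were above 0 and 14 below, with a median log2 fold change of -0.07. Of 7 tested rows of other cytokines under NF-kB, 4 were called lower and none higher (3.66% and 1.83% over all tested rows). The 4 were both rows of IL1A and those of IL1B and IL6, so that IL1A counts in 2 of them. IL6 was at 32.6, 28.1 and 28.4 FPKM in shCtr and at 13.97, 12.5 and 12.2 FPKM in shZNF148 (log2 fold change -1.14, limma adjusted p = 0.00475), and was called under all 17 alternatives. Of these, 1 IL1A row and IL1B had log2 fold changes of -1.65 and -2.34, and their calls were lost without shCtr replicate 1 (adjusted p = 0.0673 for each) or 3 (0.0690 and 0.0534). The other IL1A row, at -2.71, kept its call without shZNF148 replicate 2 and lost it without any other single sample (adjusted p between 0.0521 and 0.1204), with no filter (0.0531), with a pseudocount of 0.1 FPKM (0.0567) and with robust eBayes (0.0713). CSF2 and LIF, in the same list, had log2 fold changes of 0.09 and 0.28 and were not called, nor was CSF3 (-0.74).

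The ELR+ genes lie together on chromosome 4 of GRCh38, by the GENCODE release 44 annotation. IL8 spans 73740519 to 73743716 and CXCL1 spans 73869393 to 73871308, both on the plus strand. CXCL3 spans 74036589 to 74038807 and CXCL2 spans 74097040 to 74099196, both on the minus strand, 58.2 kb apart. The 358.7 kb from IL8 to CXCL2 also hold CXCL6, PF4V1, PF4, PPBP and CXCL5, none of which had a mean of 1 FPKM. The nearest tested gene beyond the cluster, MTHFD2L, overlapped between groups (log2 fold change -0.24, limma adjusted p = 0.568). EREG (epiregulin), an EGF receptor ligand that begins 265.9 kb beyond CXCL2, was called in the opposite direction. It was at 6.28, 10.7 and 6.67 FPKM in shCtr and 14.2, 18.8 and 13.8 FPKM in shZNF148 (log2 fold change 0.92, limma adjusted p = 0.0356). The EREG call was lost without shCtr replicate 1 or 3 (0.80 and 0.83, adjusted p = 0.129 and 0.125) and without shZNF148 replicate 1, 2 or 3 (0.98, 0.79 and 0.999, adjusted p = 0.0807, 0.0626 and 0.0594), and with no filter (0.0556). The other genes lie elsewhere. CXCL10 is on chromosome 4 from 76021118 to 76023497, CX3CL1 on chromosome 16 from 57372477 to 57385044 and CXCR4 on chromosome 2 from 136114349 to 136119177. CCL20 is on chromosome 2 from 227805739 to 227817564, and CXCL16 and CCL5 are on chromosome 17, from 4733533 to 4739928 and from 35871491 to 35880793.

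**Figure D5:**
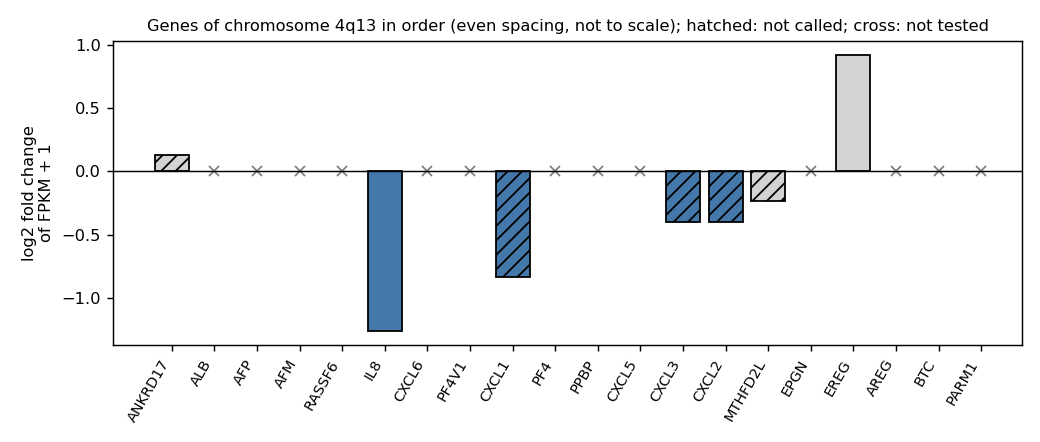
The log2 fold change of FPKM + 1, shZNF148 over shCtr, of genes in their order along chromosome 4q13, evenly spaced (blue: ELR+ chemokines, grey: neighbours, hatched: tested but not called, crosses: not tested). IL8 (-1.27) is called lower and EREG (0.92) higher, and CXCL3 and CXCL2 show the value of their joined row (-0.40) in both places.

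The 3' UTRs, which did not enter the choice of genes, differed in AU-rich words. The word ATTTA, found in AU-rich elements, occurred 9 times in the 3' UTR of IL8, 6 in that of CXCL1, 10 in that of CXCL2 and 7 in that of CXCL3. That is 7.19 to 13.97 per kb, where the median over all canonical 3' UTRs of at least 100 bases was 1.64 per kb and the 90th percentile 4.88 per kb. CCL20 had 6.34 per kb. The density was 1.92 per kb in CXCR4 and 0.994 per kb in CX3CL1, and CCL5 had none.

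The hairpin against ZNF148 targets a 21-base sequence that is printed here because the 7 bases paired by the guide seed (bases 2 to 8 of the guide, in capitals) can also occur in other transcripts.
shZNF148 target: cccttggtgaatgTAAATGAt
This seed word occurred 2 times in the canonical 3' UTR of IL8 and 1 time in that of CXCL3, and in no other 3' UTR of the 10 genes, CXCR4, CXCL1 and CX3CL1 included. At least 1 such word was present in 20.4% of 19550 canonical 3' UTRs. None of the 10 transcripts held the full target. The part of these seed words in the lower IL8 level was not tested.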

How the data were processed

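RNA of 3 shCtr and 3 shZNF148 samples of MDA-MB-231 cells was sequenced. Groups and replicate numbers were taken from the labels. FPKM values were computed by the authors and deposited as 1 table, 1 column for each sample. Per the labels, the submitters' processing notes name TopHat2 2.0.14, Cufflinks 2.2.1 and Cuffnorm 2.2.1 and the builds hg18 and hg19, whereas the methods of the paper name Salmon on GRCh38 and DESeq2. The table has no coordinates, so those printed are of GRCh38 by symbol. FPKM values are not counts, so no count test was run.

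In R 4.3.3, limma 3.58.1 was run on log2(FPKM + 1) of the rows averaging 1 FPKM or more. The model held condition alone, eBayes used the trend of variance with mean, and p-values were adjusted over all 11777 rows by Benjamini-Hochberg. Rows that share a symbol were kept apart. The fit was tested on simulated data. The thresholds were those of the paper. Single genes were compared by exact two-sided permutation of samples. Alternatives changed the filter, pseudocount, scaling, eBayes options, rows and replicates entered.

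The genes, lists and tests were chosen with earlier results of these data known. Named genes were ZNF148, the 10 chemokine genes, called genes of the pathway lists, other ligands and receptors with a mean of at least 1 FPKM, and the 5 rows most like the ELR+ mean. Promoters were from RefSeq, and 3' UTRs and coding sequences from canonical GENCODE release 44 transcripts. Coding sequences were aligned globally with Biopython 1.88. Cell markers were named as checks of the samples. No 2 samples held identical values. Some genes of the lists are not reported here.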

Additional observations from a re-analysis of the deposited data

How the results depend on the processing

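A total of 17 alternatives were run, 6 of which left out 1 replicate. The directions of IL8, CXCL1, CXCL2/CXCL3, CXCR4 and CX3CL1 were kept under each of them, and that of CXCL16 was not. From 3 to 5 of the 6 tested chemokine rows had an unadjusted p under 0.05 in each setting (limma), while the calls moved with the adjustment and the spread.

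Against 1 chemokine row called higher (CX3CL1) and 1 lower (IL8), limma called 0 and 0 with no filter, 0 and 2 with a pseudocount of 5 FPKM, 0 and 1 without the variance trend, 0 and 0 with robust eBayes, 1 and 2 with rows listed at 0 left out, and 0 to 1 and 0 to 2 with 1 replicate left out. The log2 fold change of CX3CL1 without a call was 1.39 (no filter, no trend and robust eBayes, adjusted p = 0.0685, 0.0528 and 0.0677) and 1.14 (pseudocount 5 FPKM, adjusted p = 0.0549). Leaving out 1 replicate gave 0.95 to 1.62. Over all settings the adjusted p of CX3CL1 ran from 0.00494 to 0.144. That of IL8 was -1.27 without a call (no filter and robust eBayes, adjusted p = 0.0577 and 0.0562) and -1.48 to -0.90 with 1 replicate left out, and its adjusted p ran from 0.00629 to 0.136. CXCR4 was called with a pseudocount of 5 FPKM (-0.62, adjusted p = 0.0442) and with rows listed at 0 left out (-0.94, adjusted p = 0.0384), with adjusted p from 0.0167 to 0.167 over all settings, and ran from -1.10 to -0.63 with 1 replicate left out. CXCL16 ran from -0.17 to 0.14 and CCL26 from -0.32 to 0.24 with 1 replicate left out. The cause of the other changes was not tested.

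Over all rows, limma called 216 higher and 431 lower, 76 and 204 with a pseudocount of 5 FPKM, and 3 to 209 and 19 to 393 with 1 replicate left out, with the fewest without shCtr replicates 1 (3 and 26) and 3 (3 and 19). Of the rows of the chemokine pathway lists, which leave out the cell markers, 8 were called, and 1 to 7 with 1 replicate left out. Over all tested rows, 1.83% were called higher and 3.66% lower. Of the 8 called rows, 4 were from the list of other cytokines under NF-kB, and IL1A counts in 2 of these.

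When replicate number entered as a block, limma called 99 rows higher and 216 lower, and 0 chemokine rows in either direction. CX3CL1 (1.39, adjusted p = 0.0622) and IL8 (-1.27, adjusted p = 0.0619) then did not pass, nor did 1 of the IL1A rows (-2.71, adjusted p = 0.0633), and 5 chemokine rows had an unadjusted p under 0.05. Deviations of same-numbered samples correlated at 0.00104, -0.0881 and 0.0304 across rows, and 1 of the 6 samples correlated best with its own number. With 3 samples per group, this cannot show whether same-numbered samples were handled together. The joined row of ERBB2 and MIR4728 stood apart in replicate 2 of both groups. The main model held no block because the labels do not say what a replicate number shares.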

Other observations

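Outside the chemokines, the 5 rows whose pattern over the 6 samples was most like the mean log2(FPKM + 1) of the ELR+ rows were APBA2, ATP6AP2, IRF5, EXOC2 and FLNC, with Pearson correlations of 0.998 to 0.999. The samples share their groups, and 476 of 11771 rows had a correlation above 0.95, so likeness over 6 samples is a description only. FLNC (filamin C), an actin crosslinker, was at 59.2, 59.4 and 55.8 FPKM in shCtr and at 28.6, 9.41 and 28.7 FPKM in shZNF148, so that shZNF148 replicate 2 was far below the other two, as in IL8. ATP6AP2, an accessory protein of the vacuolar ATPase, was at 86.7, 86.7 and 82.2 FPKM in shCtr and at 61.4, 40.4 and 62.7 FPKM in shZNF148. Of the 5, limma called ATP6AP2 alone (log2 fold change -0.65, adjusted p = 0.0468). The ATP6AP2 call was lost with replicate number as a block (limma adjusted p = 0.0731) and is not given for the other alternatives. IRF1, an interferon regulator singled out after its values were seen, was highest in shZNF148 replicate 2. It was at 7.76, 13.2 and 9.10 FPKM in shCtr and at 16.5, 31.0 and 15.6 FPKM in shZNF148. IRF1 was not called in the main fit (log2 fold change 0.96, limma adjusted p = 0.0692) but was called higher with replicate number as a block (limma adjusted p = 0.0415).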
